A study of Mus musculus with 12 samples.

Results

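Retinal progenitor transcription factors are the DNA-binding proteins that keep the dividing cells of the developing retina multipotent and that divide the eye into its regions. The genes described here are 9 of them, Pax6, Sox2, Rax, Lhx2, Sox9, Sox8, Nr2e1, Vax2 and Meis2, found by their symbols among the 38720 genes listed for retinal ganglion cells (RGCs) and for the remaining retinal cells (non-RGCs). All 9 had enough reads to be tested in both cell fractions, where 16085 and 15326 genes were tested.

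RNA was sequenced from the retinas of P0 (newborn) C57/BL6 mice of 2 genotypes. The mKO mice carried Math5-Cre, a Cre recombinase knocked in at the Math5 locus, and Ezh2 flox/flox, in which loxP sites surround the exons that encode the SET domain of Ezh2, while the controls were labelled wild type (WT). RGCs were taken from dissociated retinas with magnetic beads against CD90 (Thy-1), and non-RGCs were the cells separated from them, giving 12 libraries, 3 for each genotype and fraction, each from its own RNA extraction. The comparison of mKO with WT within a fraction asks how gene expression differs when Ezh2 is deleted in Math5-expressing cells and their progeny.

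The study's methods name littermate Ezh2 flox/flox mice as its usual controls, so whether the WT libraries carried loxP sites is not settled by the labels. Cre was present in the mKO mice only and in only a part of their RGCs, and the Math5 knock-in allele and the loss of Ezh2 cannot be told apart here. The deposited values are means of 3 libraries of gene reads divided by each library's size factor, and the whole reads of each library were recovered from their digits (libraries A, B and C, named by depth within a group, since no column ties them to a replicate number). Values below are these normalized read counts unless another scale is named. The libraries held 7139633 to 13014004 reads on genes. Ezh2 itself was measured at 1354, 1476 and 1443 in mKO RGCs and at 1190, 1206 and 1678 in WT RGCs. The groups overlapped (log2 fold change 0.09, limma adjusted p = 0.637), as they did in non-RGCs (0.13, limma adjusted p = 0.584), and reads over the whole gene do not isolate the deleted exons.

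Most of the 9 proteins bind DNA through a homeodomain or the HMG box of the Sox family. Rax, Pax6 and Lhx2 belong to the gene network that specifies the eye field, Sox2 keeps retinal progenitors competent to make neurons, and Sox8, Sox9, Lhx2 and Rax stay on in the late progenitors from which Müller glia arise. Ezh2 is the catalytic subunit of polycomb repressive complex 2, which methylates histone H3 at lysine 27, and genes of developmental transcription factors with CG-rich promoters are its best known targets.

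Promoter windows, available for 6 of the 9 factors, were mostly rich in CG dinucleotides. RefSeq promoter windows of 300 bases, from 250 bases before to 50 after a transcription start on GRCm38.p6 (the build that mm10 names), matched these 6 with 8 windows. Rax, Sox9 and Vax2 had no window, so of the factors called lower in RGCs only Lhx2 is covered. The windows held 13 to 34 CG dinucleotides, with a median of 20, against a median of 7 over 32851 windows of the same length. The 3 windows shown are the one with the most CG dinucleotides, one of intermediate content and the one with the fewest, from a factor called lower in both fractions (Lhx2), one called in non-RGCs but just outside the threshold in RGCs (Sox8) and one called in neither (Meis2), with each CG in capitals.
Lhx2: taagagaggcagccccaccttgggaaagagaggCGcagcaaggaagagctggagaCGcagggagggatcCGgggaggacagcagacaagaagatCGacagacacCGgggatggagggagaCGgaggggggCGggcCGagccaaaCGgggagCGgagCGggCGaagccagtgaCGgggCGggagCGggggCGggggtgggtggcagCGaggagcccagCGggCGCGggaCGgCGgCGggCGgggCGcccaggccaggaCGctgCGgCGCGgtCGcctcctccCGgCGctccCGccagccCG
Sox8: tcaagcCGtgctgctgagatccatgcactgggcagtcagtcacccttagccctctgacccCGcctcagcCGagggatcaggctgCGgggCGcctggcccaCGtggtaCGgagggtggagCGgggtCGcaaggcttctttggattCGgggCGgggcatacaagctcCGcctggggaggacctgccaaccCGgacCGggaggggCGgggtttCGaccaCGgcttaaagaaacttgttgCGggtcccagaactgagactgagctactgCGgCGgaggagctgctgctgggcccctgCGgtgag
Meis2: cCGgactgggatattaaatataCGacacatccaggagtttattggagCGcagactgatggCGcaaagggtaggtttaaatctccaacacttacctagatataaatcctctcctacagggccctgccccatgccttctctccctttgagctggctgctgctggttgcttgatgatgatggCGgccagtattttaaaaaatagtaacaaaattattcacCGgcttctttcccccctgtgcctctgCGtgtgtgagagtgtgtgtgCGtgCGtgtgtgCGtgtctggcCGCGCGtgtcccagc

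The Lhx2 window lies at chr2:38339031-38339330 on the plus strand and holds 34 CG dinucleotides, a number reached by 7.73% of all windows. The Sox8 window lies at chr17:25570637-25570936 on the minus strand and holds 21, reached by 24.8% of windows. The Meis2 window lies at chr2:116064570-116064869 on the minus strand and holds 13, reached by 37.9%. The number of CG dinucleotides did not follow the calls in every factor. The Sox2 window, not shown, holds 27, and Sox2 was called in neither fraction with all libraries. Meis2 was called lower in RGCs after removal of the GC content trend described below. The letters TAATTA, a palindrome that many homeodomain proteins bind, were found in 0 of the 8 windows and in 5.29% of all windows. Binding of Ezh2 and of the factors was not measured.

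In RGCs, 4 of the 9 factors were called lower in mKO than in WT, at an adjusted p under 0.05 by limma on log2(value + 1). Rax, Lhx2, Sox9 and Vax2 fell to 0.546 to 0.687 of their WT level. Of the 9, 0 rose at an adjusted p under 0.05 or at p under 0.05 before adjustment, and limma with voom weights called the same 4. Over all genes tested in RGCs, 21.2% were called lower and 16.3% were called higher. All 9 fold changes were below 0, with a median log2 fold change of -0.54 against -0.0024 over all genes, of which 50.2% were below 0. The highest mKO library was lower than the lowest WT library for 7 of the 9, all but Pax6 and Nr2e1, a pattern that 28.2% of all genes showed. The sign of all 9 stayed below 0 when libraries were scaled to RPM (reads divided by the reads on genes of the library, times 1000000) or centred on their medians, although the first of these scalings moved the median of all genes to 0.12 in RGCs and 0.14 in non-RGCs and the genes called in RGCs from 2622 higher and 3405 lower to 3846 and 2240. On the RPM scale 3 of 9 factors were called, where 13.9% of all genes were called lower: Lhx2 lost its call at -0.56 (limma adjusted p = 0.0588), Pax6 shrank to -0.084 and Meis2 to -0.067. P-values set the difference between genotypes against the spread among the 3 libraries within each group, which limma moderates over all genes tested.

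**Figure D1:**
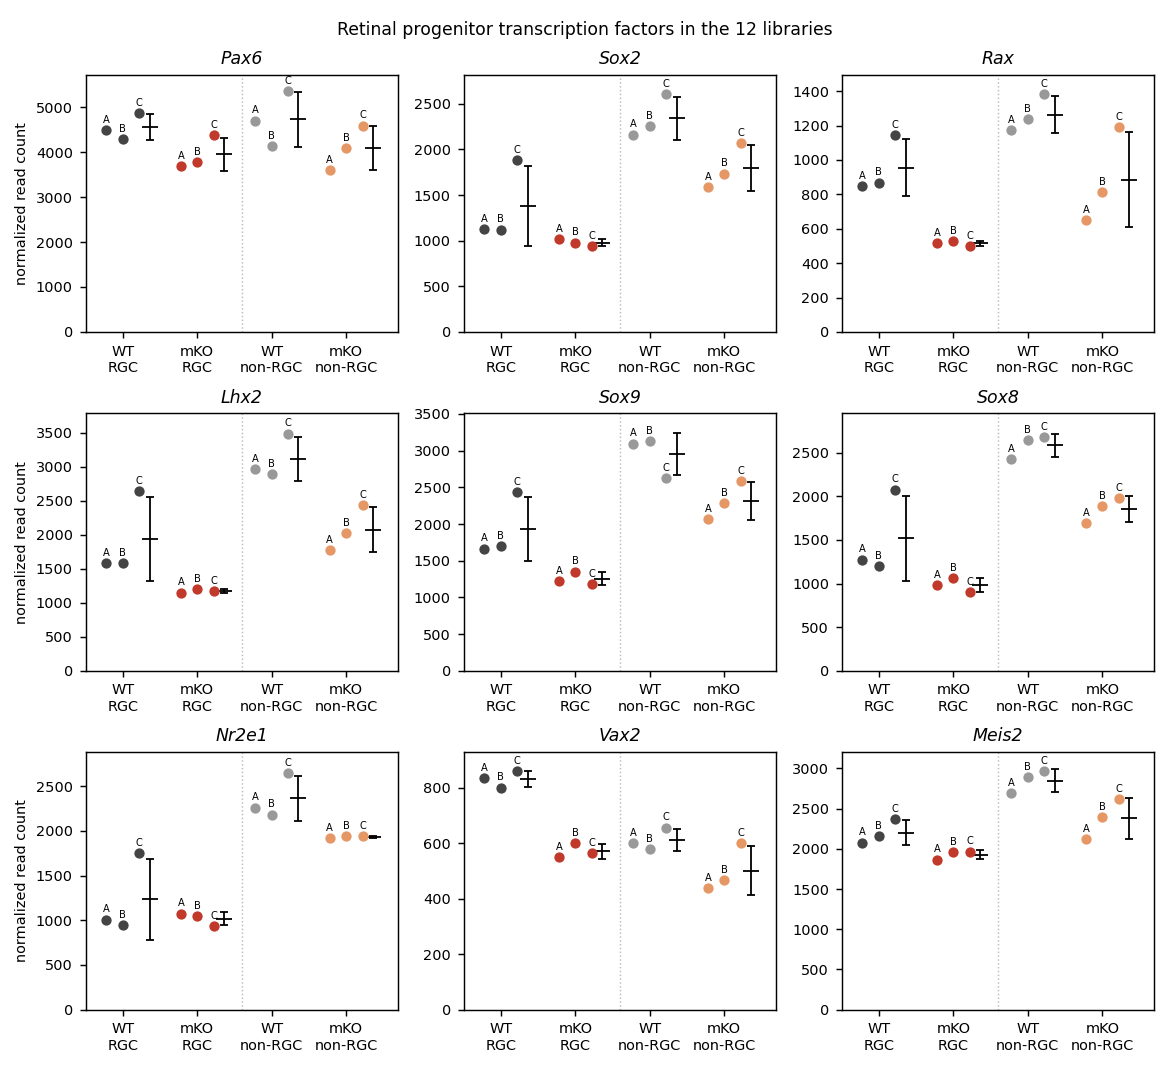
Normalized read count (y axis, from 0) of each factor in the 3 libraries (A, B, C) of WT RGCs, mKO RGCs, WT non-RGCs and mKO non-RGCs, with the mean and SD as a black bar beside them. RGC and non-RGC tables were normalized separately, so levels are compared only within a side of the dotted line. WT RGC library C stands above the other WT RGC libraries for Sox2, Lhx2, Sox9, Sox8 and Nr2e1.

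Of the eye field factors, Rax had the largest change. Its values were 518, 530.2 and 499.7 in mKO RGCs and 849, 868 and 1145 in WT RGCs. The groups were far apart, and the mKO libraries were close to each other. The log2 fold change of Rax was -0.87 (SE 0.119, limma adjusted p = 0.00194, n = 3 per genotype), or 45.4% fewer reads in mKO. Lhx2, a LIM-homeodomain factor, was measured at 1151, 1198 and 1173 in mKO RGCs and at 1584, 1587 and 2649 in WT RGCs. WT library C alone lay far above the rest, and the groups did not overlap without it either. The log2 fold change of Lhx2 was -0.68 (SE 0.191, limma adjusted p = 0.0292). Pax6, which progenitors share with RGCs and amacrine cells, was measured at 3694, 3779 and 4379.6 in mKO RGCs and at 4492, 4298 and 4866 in WT RGCs. The highest mKO library exceeded the lowest WT library, and the log2 fold change of -0.21 (SE 0.0830, limma adjusted p = 0.0905) was not called.

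The 3 Sox genes had similar mean changes with different spreads. Sox9, which progenitors and Müller glia express, was measured at 1225, 1352 and 1186 in mKO RGCs and at 1664, 1700.05 and 2438 in WT RGCs. The groups were apart, and Sox9 was called lower with a log2 fold change of -0.60 (SE 0.148, limma adjusted p = 0.0178). Sox8, its close relative in the SoxE group, was measured at 979.9, 1059 and 902 in mKO RGCs and at 1273, 1204 and 2076 in WT RGCs. Its log2 fold change of -0.59 (SE 0.200, limma adjusted p = 0.0551) lay just outside the threshold, with WT library C far above the other WT libraries. Sox2 was measured at 1019, 979 and 939 in mKO RGCs and at 1129, 1120.3 and 1886 in WT RGCs. The same WT library stood apart, and the log2 fold change of -0.45 (SE 0.194, limma adjusted p = 0.110) was not called.

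Nr2e1, the orphan nuclear receptor Tailless that maintains neural stem cells, was measured at 1076, 1047 and 934 in mKO RGCs and at 1009, 942 and 1754 in WT RGCs. WT libraries A and B lay within the range of the mKO libraries, and the log2 fold change was -0.22 (SE 0.223, limma adjusted p = 0.469). Vax2, a homeodomain factor of the ventral retina, was measured at 549, 600.3 and 564 in mKO RGCs and at 833, 800.1 and 860.1 in WT RGCs. The WT libraries were close together and far above the mKO libraries, and the log2 fold change was -0.54 (SE 0.0656, limma adjusted p = 0.00126). Meis2, a TALE-class homeodomain factor that acts together with Pbx proteins, was measured at 1865, 1956 and 1966 in mKO RGCs and at 2078, 2156 and 2373 in WT RGCs. The groups were apart by a small margin, and the log2 fold change of -0.19 (SE 0.0642, limma adjusted p = 0.0550) was not called.

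WT RGC library C carried more of several other cell programs, and its values bear on the factors above. Its log2 level exceeded the mean of libraries A and B by 0.85 for Nr2e1, 0.75 for Sox8, 0.75 for Sox2, 0.74 for Lhx2, 0.54 for Sox9 and 0.41 for Rax. For Meis2, Pax6 and Vax2 the difference was 0.16, 0.15 and 0.08. All 12 proliferation genes (Mki67, Top2a, Pcna and others) were higher in this library, with a median log2 difference of 0.76, and their summed level was 1764 RPM against 979 and 1081 in the other WT RGC libraries and 1168 to 1324 in mKO RGCs. All 16 other progenitor transcription factors were higher in it by a median of 0.55, as were 6 of 7 Müller glia genes and 9 of 10 photoreceptor genes by medians of 0.79 and 0.54, while the 12 RGC genes differed by a median of -0.10. The share of progenitors in each library was not measured, and in bulk RNA fewer cells of a type and less RNA per cell cannot be told apart.

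Without WT library C, 7 factors were called lower in place of 4, and most changes became smaller. Over all genes the share called lower went from 21.2% to 27.6% in the same step. Sox2 was then called with a log2 fold change of -0.20 (limma adjusted p = 0.0113), Sox8 with -0.34 (limma adjusted p = 0.00508) and Meis2 with -0.13 (limma adjusted p = 0.0342). Lhx2 went from -0.68 to -0.43 and Sox9 from -0.60 to -0.43, and both were called. Rax at -0.73 and Vax2 at -0.52 moved least in proportion among the 4 factors called with all libraries, and Nr2e1 turned to 0.06 (limma adjusted p = 0.489). Lhx2 was not called without any one of the mKO libraries (limma adjusted p = 0.0871 without A, 0.0800 without B and 0.0864 without C), with log2 fold changes of -0.67, -0.69 and -0.68. Sox9 was not called without mKO library A or C (limma adjusted p = 0.0625 and 0.0687), at -0.59 and -0.56, so that the estimates of both moved little. Sox8 was also called without WT library B and Pax6 without mKO library C. Rax and Vax2 were called with each of the 6 libraries left out in turn.

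**Figure D2:**
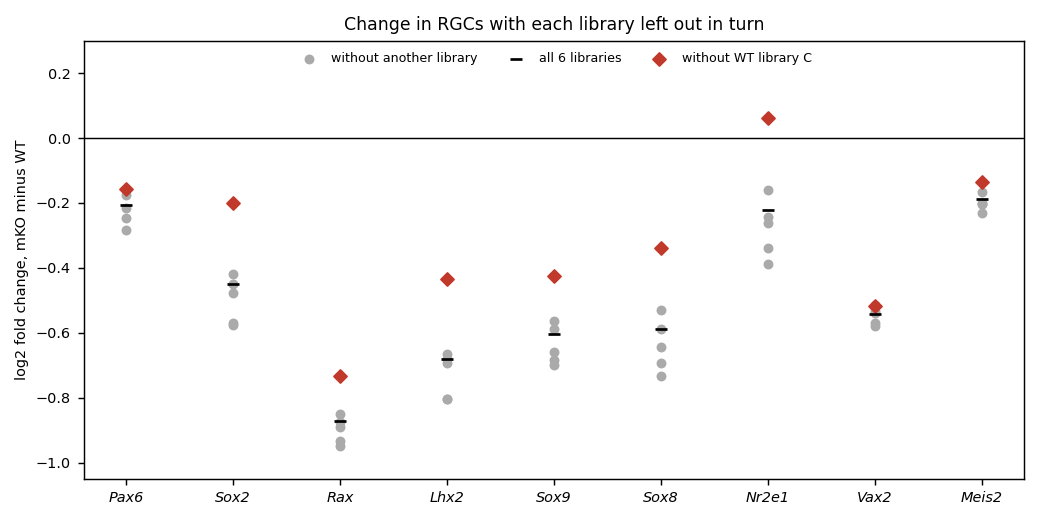
Log2 fold change of each factor in RGCs (y axis, mKO minus WT) with all 6 libraries (black dash), without WT library C (red diamond) and without each of the other 5 libraries (grey). Leaving out WT library C brings Sox2, Lhx2, Sox9, Sox8 and Nr2e1 nearer to 0 or past it, while Vax2 stays between -0.58 and -0.51.

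The change between genotypes followed base composition over all genes, and the factors differ in it. When genes that averaged 50 or more normalized reads were put in 10 groups by the GC content of their exons, the median log2 fold change in RGCs went from 0.44 in the group of lowest GC content to -0.52 in the highest. Vax2 and Lhx2, with exons of 61.7% and 59.7% GC, fell in the highest group, whose median was close to Vax2's own change. Rax at 52.5% GC changed by -0.87 where its group had a median of -0.18, Sox9 at 49.3% changed by -0.60 where its group had a median of 0.02, and Meis2 at 44.1% changed by -0.19 where its group had a median of 0.20. All 9 factors lay below the median of their GC group in RGCs, and 6 lay below its 25th percentile.

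With the trend over GC content removed from each library, 3 of 9 factors were called lower in RGCs, where 9.02% of all genes were. Rax was called at a log2 fold change of -0.67 (SE 0.108, limma adjusted p = 0.0112), Sox9 at -0.55 (SE 0.144, limma adjusted p = 0.0477) and Meis2 at -0.38 (SE 0.0618, limma adjusted p = 0.0112). Vax2 turned to 0.06 (SE 0.0538, limma adjusted p = 0.491), and Lhx2 went to -0.17 (SE 0.185, limma adjusted p = 0.582). The median of the 9 was -0.30 against 0.05 over all genes, with 8 of 9 below 0. Rax and Sox9 were thus called lower on both scales, and Vax2 and Lhx2 only without the correction. The call of Sox9 was lost when read density (reads per base of exon) was removed together with GC content, at -0.39 (limma adjusted p = 0.148). With WT library C left out as well, Rax at -0.55, Sox9 at -0.38 and Meis2 at -0.33 were still called, where 17.2% of all genes were called lower, while Lhx2 at 0.07 and Sox8 at -0.07 were not. Whether the trend arose in the cells or in the handling of the libraries was not tested.

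**Figure D3:**
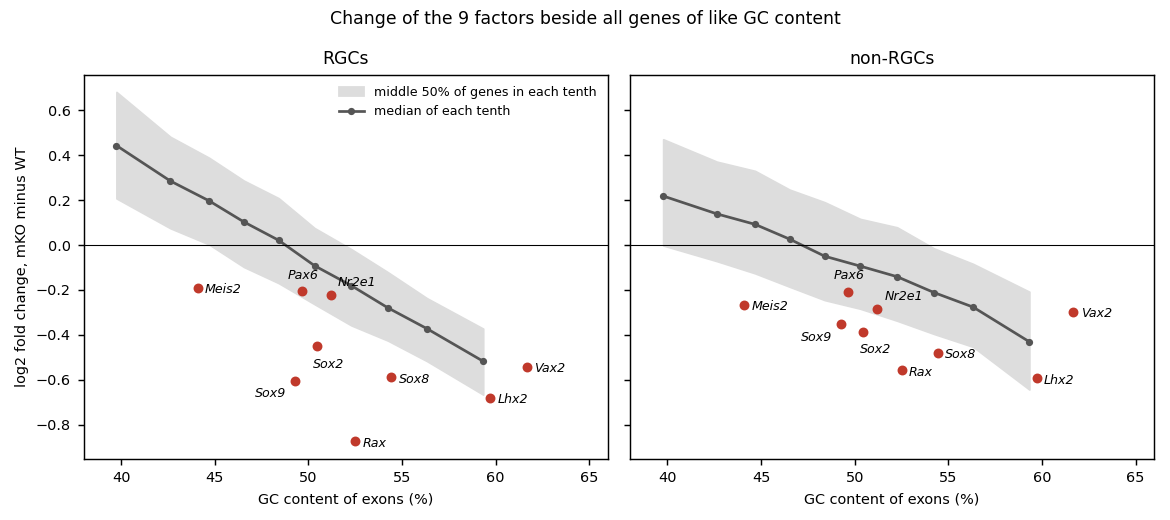
Log2 fold change (y axis, mKO minus WT) against GC content of exons in percent (x axis) in RGCs and non-RGCs. The line joins the medians of 10 groups of genes by GC content, the grey band spans the middle 50% of each group, and red points are the 9 factors. In each fraction 6 of them are below the 25th percentile of their own group, which can differ from the band drawn between groups.

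In non-RGCs, 2 of the 9 factors were called lower in mKO. Lhx2 and Sox8 fell to 0.663 and 0.717 of their WT level, where 6.43% of all genes were called lower and 4.18% higher. Of the 9, 0 rose, also at p under 0.05 before adjustment, and 7 were lower at that p, all but Pax6 and Vax2, as were 16.7% of all genes. All 9 fold changes were below 0, with a median of -0.35 against -0.03 over all genes. The highest mKO library was lower than the lowest WT library for 6 of 9 factors, Sox2, Lhx2, Sox9, Sox8, Nr2e1 and Meis2, as it did for 19.2% of all genes. The mKO library with the fewest reads on genes, library C with 7139633, had a higher value than the mean of the other mKO libraries for 9 of 9 factors.

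Lhx2 was measured at 1774, 2027 and 2435 in mKO non-RGCs and at 2971, 2897 and 3491 in WT non-RGCs. The groups were apart, with a log2 fold change of -0.59 (SE 0.140, limma adjusted p = 0.0298). Sox8 was measured at 1688, 1890.35 and 1981 in mKO and at 2425, 2639.8 and 2679 in WT. Its groups were also apart, with a log2 fold change of -0.48 (SE 0.112, limma adjusted p = 0.0287).

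Rax was measured at 652, 812 and 1189 in mKO non-RGCs and at 1173, 1239 and 1382 in WT non-RGCs. One mKO library reached the WT level, and the log2 fold change of -0.56 (SE 0.202, limma adjusted p = 0.101) was not called. Without that library, mKO library C, the change was -0.79 (limma adjusted p = 0.0228) and 4 factors were called, Sox2, Rax, Lhx2 and Sox8, where 7.35% of all genes were called lower. Sox2 was measured at 1584, 1734 and 2072 in mKO and at 2161, 2253 and 2603 in WT. Its groups were apart by a small margin, with a log2 fold change of -0.38 (SE 0.134, limma adjusted p = 0.0920). Sox9 was measured at 2066, 2285.5 and 2581 in mKO and at 3096, 3134 and 2620.3 in WT. The highest mKO and the lowest WT library nearly met, and the log2 fold change was -0.35 (SE 0.126, limma adjusted p = 0.0964).

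The other 4 factors had changes of -0.30 to -0.21 in non-RGCs. Nr2e1 was measured at 1916, 1943 and 1940.3 in mKO and at 2261, 2183 and 2649.5 in WT. The mKO libraries were almost equal, and the log2 fold change was -0.29 (SE 0.114, limma adjusted p = 0.129). Vax2 was measured at 438, 466 and 600.2 in mKO and at 599, 579.6 and 656 in WT, which overlapped, with a log2 fold change of -0.30 (SE 0.159, limma adjusted p = 0.238). Meis2 was measured at 2116, 2398 and 2619.5 in mKO and at 2691, 2888 and 2968 in WT, groups that were just apart, with a log2 fold change of -0.26 (SE 0.116, limma adjusted p = 0.159). Pax6 was measured at 3609, 4089.5 and 4591 in mKO and at 4703, 4142 and 5365 in WT. These overlapped, and the log2 fold change was -0.21 (SE 0.131, limma adjusted p = 0.313).

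The calls in non-RGCs depended on the scale and on single libraries. Under RPM, Lhx2 was at -0.42 (limma adjusted p = 0.0610) and Sox8 at -0.31 (limma adjusted p = 0.0795), and 0 of 9 factors were called by limma, where 2.92% of all genes were called lower. With the GC content trend removed, 0 of 9 were called, where 0.685% of all genes were called lower. At p under 0.05 before adjustment 5 of 9 were lower, as were 10.4% of all genes, and the factors had a median of -0.27 against 0.04 over all genes. Vax2 turned to 0.21 (limma adjusted p = 0.379). The number called by limma was 0 without mKO library A, mKO library B, WT library A or WT library B, and 1, Sox8 (limma adjusted p = 0.0485), without WT library C.

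**Figure D4:**
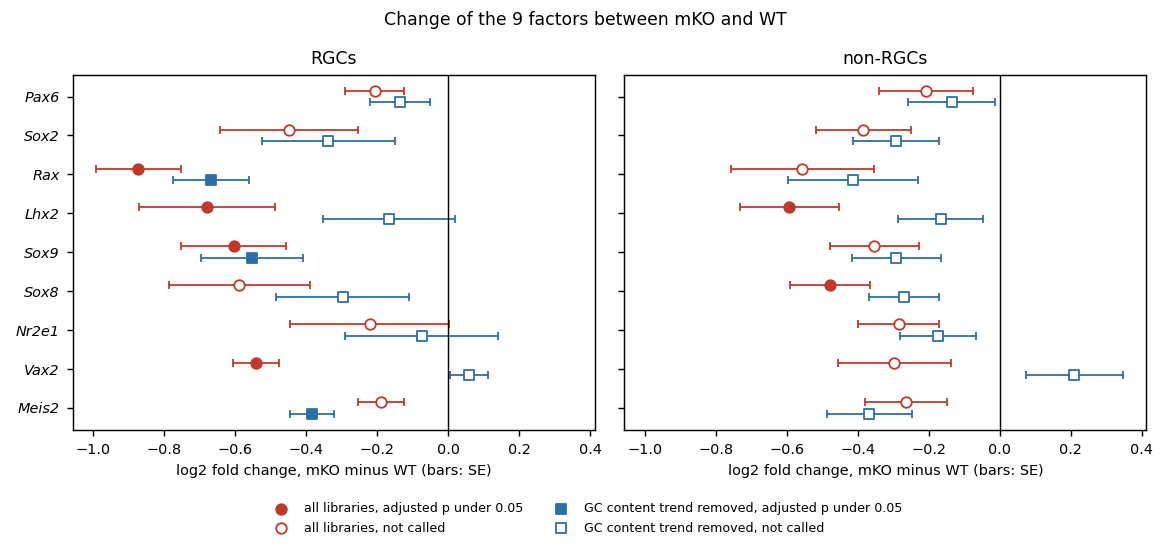
Log2 fold change of mKO over WT (x axis, bars show SE) of the 9 factors in RGCs (left) and non-RGCs (right), as measured (red circles) and with the GC content trend removed (blue squares). Filled symbols have an adjusted p under 0.05: Rax, Lhx2, Sox9 and Vax2 as measured and Rax, Sox9 and Meis2 after removal in RGCs, and Lhx2 and Sox8 as measured in non-RGCs.

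The change in RGCs was compared with that in non-RGCs in a single fit of all 12 libraries. The difference was called by limma for 0 of 9 factors, with the trend or with voom weights, and for 0.107% of all genes, and 0 factors had p under 0.05 before adjustment. The estimates ran from -0.32 for Rax (SE 0.258, limma adjusted p = 0.654) to 0.08 for Meis2 (SE 0.129, limma adjusted p = 0.830), and the smallest adjusted p was 0.606, for Vax2. No factor was therefore shown to change more in the bead-selected cells than in the rest.

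Levels across the fractions are given in RPM, as a description, since the tables were normalized separately. In WT retinas, Nr2e1 was 2.13 times as high in non-RGCs as in RGCs, Sox8 and Sox2 1.89 times, Lhx2 1.79 times, Sox9 1.70 times, Rax 1.48 times and Meis2 1.44 times. The libraries of the fractions did not overlap for these 7. The share of all genes that were apart between the fractions was not counted, so this is no trait particular to the factors. Pax6, at 1.16 times, overlapped between fractions. Vax2 went the other way and was 1.22 times as high in WT RGCs as in WT non-RGCs, with no overlap. In mKO retinas the ratio of non-RGCs to RGCs was 1.98 for Rax and 2.13 for Sox9, while Vax2 had a ratio of 1.01 and overlapped.

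The factors ranked differently once exon length was taken into account. In RPKM, the RPM per kilobase of exon, Sox2 was the highest of the 9 in WT non-RGCs at 101 ± 7.08 (SD, n = 3), followed by Sox8 at 73.9 ± 2.82, Sox9 at 63.8 ± 7.87, Lhx2 at 63.3 ± 4.74 and Nr2e1 at 56.8 ± 4.39. Sox9, Lhx2 and Nr2e1 lay within each other's spread. Vax2 at 43.9 ± 1.72, Pax6 at 36.1 ± 3.84, Meis2 at 21.1 ± 0.671 and Rax at 19.3 ± 1.07 followed, so that Pax6, the gene with the most reads of the 9, was among the lower per length. Length here was the union of the exons of all annotated transcripts of a gene, 11694 bases for Pax6 and 2057 for Sox2. Which transcripts were expressed was not tested, and the ranking depends on this length. In WT RGCs on the same scale, Sox2 at 53.7 ± 17.7 and Vax2 at 53.5 ± 2.56 were highest and Rax at 13.1 ± 2.40 was lowest, and in mKO RGCs Sox2 was at 41.4 ± 2.24, Vax2 at 40.0 ± 1.89 and Rax at 7.68 ± 0.312.

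**Figure D5:**
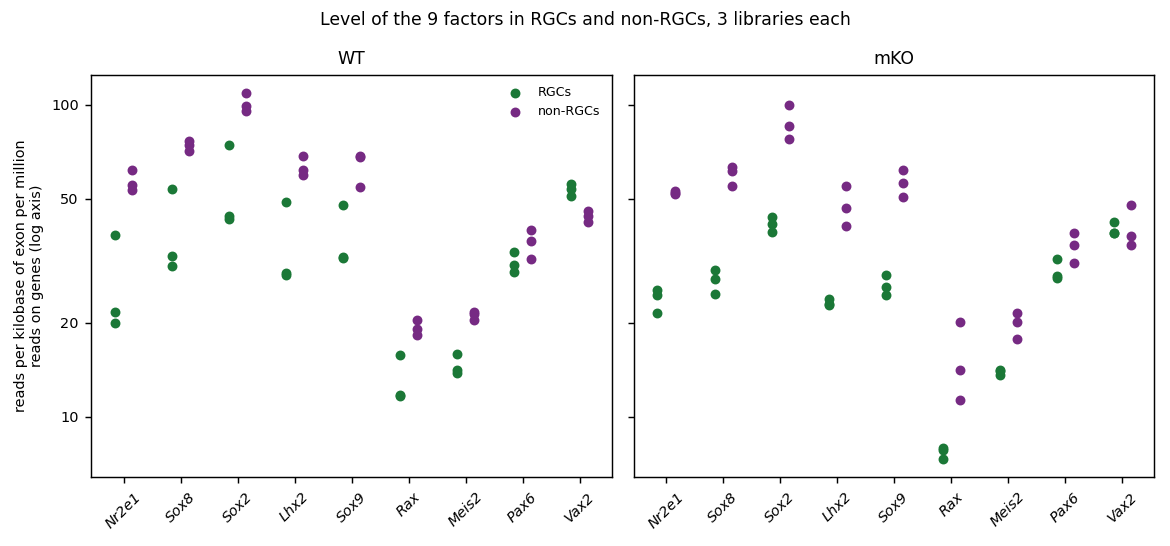
Level of the 9 factors in RPKM (y axis, log scale) in WT (left) and mKO (right) libraries of RGCs (green) and non-RGCs (purple), ordered by the ratio of the fractions in WT. The 3 purple points lie above the 3 green points for 7 factors in each genotype, Pax6 overlaps in both, and Vax2 is higher in RGCs in WT and overlaps in mKO. The share of all genes that were apart in this way was not counted.

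The bead selection was checked with RGC genes. Pou4f1, a POU-domain factor of RGCs, was at 335 RPM in WT RGCs and 6.64 in WT non-RGCs, a 50.5-fold difference, against 235 and 19.3 in mKO, a 12.2-fold difference. Thy1, the antigen of the beads, was 407-fold higher in WT RGCs than in WT non-RGCs and 15.4-fold higher in the mKO fractions. Of 12 RGC genes, 10 were called lower in mKO RGCs (among them Thy1 at a log2 fold change of -0.73 and Tubb3 at -0.68), and 8 were called higher in mKO non-RGCs (Thy1 at 3.86 and Pou4f3 at 3.02), with list medians of -0.47 and 0.99. The shares over all genes were 21.2% lower in RGCs and 4.18% higher in non-RGCs. After removal of the GC content trend, 8 of the 12 were called lower in RGCs and 5 higher in non-RGCs. Over all genes, 9.02% were then called lower in RGCs, and 154 of 15326 were called higher in non-RGCs. Pou4f3 at 3.21 was not among the 5 (limma adjusted p = 0.0574). The summed level of the 12 was 608 to 814 RPM in mKO non-RGCs and 513 to 539 in WT non-RGCs, with no gene of the list at 0. The part of the selection in the changes of the factors was not tested.

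Other retinal progenitor transcription factors moved like the 9 in part. Of 16 tested in RGCs, 6 were called lower and 2 higher, with a median log2 fold change of -0.43. For this list and those below, the shares over all genes were 21.2% lower and 16.3% higher in RGCs. In non-RGCs they were 6.43% and 4.18%. After removal of the GC content trend, 9.02% of all genes were called lower in RGCs and 0.685% in non-RGCs. At p under 0.05 before adjustment, 16.7% of all genes were lower in non-RGCs, and 10.4% after that removal. The Notch effector Hes5 fell by 0.79 on the log2 scale, while Nfia and Nfib, nuclear factor I genes of late progenitors, rose by 0.58 and 0.52. In non-RGCs, 3 of the 16 were called lower (among them Zic2 at -0.60) and 0 higher, with a median of -0.32. With the GC content trend removed, Hes5 at -0.13, Nfia at 0.31 and Nfib at 0.22 lost their calls in RGCs (limma adjusted p = 0.601, 0.303 and 0.383). Six3 at -0.31 and Hmgb3 at -0.53 were then the 2 called lower there, with 0 higher. In non-RGCs limma then called 0, with 1 higher and 3 lower at p under 0.05 before adjustment.

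Some paralogues of the 9 factors fell further than the factors did. In RGCs, 4 of 8 tested were called lower and 0 higher, with a median of -0.51. Sox3, the X-linked SoxB1 relative of Sox2, fell by 1.30 on the log2 scale (SE 0.131, limma adjusted p = 0.000816), and Nr2e3, the photoreceptor relative of Nr2e1, fell by 0.88. In non-RGCs, 3 of 9 were called lower and 0 higher, with a median of -0.23, and Pax2 fell by 2.16 (SE 0.366, limma adjusted p = 0.0109) and Sox3 by 0.97. Sox3 was still called in RGCs with the GC content trend removed, at -0.48 (limma adjusted p = 0.0462). The other paralogue called there was Meis1 at -0.40 (limma adjusted p = 0.00715), which was not called without the correction, while Nr2e3, Pax2 and Meis3 lost their calls. In non-RGCs 0 were then called by limma, with 4 lower at p under 0.05 before adjustment, and Pax2 was still at -1.70 (limma adjusted p = 0.0584).

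Vax2 has partners among the genes that pattern the retina from dorsal to ventral and from nasal to temporal. Of 13 such genes, 4 were called lower and 0 higher in RGCs (median -0.12), and 3 lower and 1 higher in non-RGCs (median -0.15). Tbx2, a dorsal T-box factor, fell by 0.84 in RGCs and by 0.82 in non-RGCs on the log2 scale, and Nr2f1 fell by 0.35 in RGCs. Ephb2, a guidance receptor that is highest ventrally, fell by 0.66 in non-RGCs, and Bmp4, the dorsal signal, rose by 1.65 from a mean of 19.0 to 54.1 (limma adjusted p = 0.0495). The ventral Vax2 and the dorsal Tbx2 thus both fell in RGCs. With the GC content trend removed, limma called 0 of the 13 in either fraction. At p under 0.05 before adjustment 1 was then higher and 1 lower in RGCs, and 2 and 2 in non-RGCs. Over all genes, 5156 of 16085 in RGCs and 3631 of 15326 in non-RGCs had that p in either direction.

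Of 13 cofactors and signals that act with the factors in progenitors, 6 were called lower and 0 higher in RGCs (median -0.29) and 3 lower and 0 higher in non-RGCs (median -0.25). Notch1, the receptor that holds progenitors undifferentiated, fell by 0.76 in RGCs and by 1.13 in non-RGCs on the log2 scale, and it was the gene of this list that was called with the GC content trend removed, in non-RGCs at -0.89 (limma adjusted p = 0.0298). Ldb1, the LIM-domain binding cofactor of Lhx2, fell by 0.71 in RGCs, and Atn1 fell by 0.73 in non-RGCs.

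Of 12 proliferation genes, 1 was called lower in each fraction and 0 higher, with list medians of -0.14 and -0.20. These were Pcna with a log2 fold change of -0.44 in RGCs and Mcm2 with -0.47 in non-RGCs. The shares called lower over all genes were 21.2% in RGCs and 6.43% in non-RGCs. After removal of the GC content trend, limma called 1 lower in RGCs. In non-RGCs it then called 0, with 3 lower at p under 0.05 before adjustment. The summed level of the list was 1168 to 1324 RPM in mKO RGCs, within the 979 to 1764 of WT RGCs.

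Markers of other retinal cells were counted beside the factors, each value being a log2 fold change of mKO over WT. The shares over all genes were 21.2% lower and 16.3% higher in RGCs, and 6.43% and 4.18% in non-RGCs. Amacrine and horizontal genes had 4 of 10 called lower in RGCs (Slc32a1 at -0.88 and Slc6a9 at -0.86) and 3 in non-RGCs (Onecut1 at -1.60 and Slc6a9 at -1.03). Their summed level was 549 to 583 RPM in mKO RGCs against 553 to 676 in WT RGCs, and 1090 to 1156 in mKO non-RGCs against 1268 to 1371 in WT non-RGCs. Photoreceptor genes had 4 of 10 called lower in RGCs (among them Nr2e3 at -0.88) and 4 in non-RGCs (Nrl at -0.76 and Nr2e3 at -0.74). At p under 0.05 before adjustment, 5 were lower and 2 higher in each fraction. Thrb at 0.57, Gnat2 at 0.26 and Arr3 at 0.73 rose in RGCs without a call, and the rest of the list fell. In non-RGCs these genes were at 0.38, 0.53 and 1.06, also without a call, and the rest fell. The summed level of the 10 photoreceptor genes was 404 to 449 in mKO RGCs against 453 to 678 in WT RGCs, and 841 to 946 in mKO non-RGCs against 995 to 1188 in WT non-RGCs. Of 7 Müller glia genes tested, which late progenitors share in part, 2 were called lower in RGCs, Car2 at -0.46 and Glul at -0.44. In non-RGCs limma called 0 of them, with 1 lower at p under 0.05 before adjustment, and Abca8a at -2.39 and Car2 at -0.32 had the largest changes. Abca8a had few reads, with means of 0.257 in mKO and 13.4 in WT non-RGCs (SE 1.11, limma adjusted p = 0.182). The medians of the lists were -0.31, -0.52 and -0.19 in RGCs and -0.45, -0.34 and -0.21 in non-RGCs, in the order above, and 0 genes of them were called higher or were at 0 in every library of a group. After removal of the GC content trend, limma called 3, 2 and 1 of these genes lower in RGCs, in the order above. In non-RGCs it then called 0, 1 and 0. The list medians were then -0.26, -0.40 and -0.37 in RGCs and -0.38, -0.24 and -0.14 in non-RGCs. Slc32a1, Nr2e3 and Car2 lost their calls in RGCs (limma adjusted p = 0.129, 0.0940 and 0.0766), while Slc6a9 and Glul kept theirs. Onecut1, Slc6a9, Nrl and Nr2e3 lost their calls in non-RGCs. The part of these lists in the values of the factors was not tested.

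Genes of the pigment epithelium moved the other way, where 16.3% of all genes were called higher in RGCs and 4.18% in non-RGCs. Of 6 tested in RGCs, 3 were called higher (Tyr at 2.01 and Pmel at 1.22, list median 1.02), and of 7 in non-RGCs 5 were (Tyr at 2.62 and Mlana at 2.00, list median 1.59). Their summed level was 50.03 to 75.5 RPM in mKO RGCs against 26.5 to 34.3 in WT RGCs, and 172 to 196 in mKO non-RGCs against 35.5 to 67.6 in WT non-RGCs, and 1 of the 8 genes, Rpe65, the defining enzyme of these cells, was at 0 reads in every WT library and at 0 to 2 reads in the mKO libraries. Astrocyte genes had 2 of 8 called lower in RGCs (Apoe at -0.73 and Pax2 at -0.66, list median -0.35) and 1 of 7 in non-RGCs, Pax2, which is also a paralogue in the list above (list median -0.07). The shares called lower over all genes were 21.2% in RGCs and 6.43% in non-RGCs. Among ciliary margin genes limma called 0 of 7 in RGCs, with 1 higher at p under 0.05 before adjustment. Over all genes, 7658 of 16085 had that p in RGCs in either direction. Mitf at 0.50 and Msx1 at 0.43 had the largest changes of this list (list median 0.01). In non-RGCs 1 ciliary margin gene was called higher, Wls at 2.22 (list median 0.17). Endothelial and pericyte genes had 1 of 8 called lower in RGCs, Pdgfrb at -0.84 (list median -0.56). In non-RGCs limma called 0 of these 8, with 3 lower at p under 0.05 before adjustment, and Cdh5 at -2.62 and Pecam1 at -1.67 had the largest changes (list median -0.84). Both had few reads there. Cdh5 had means of 5.95 in mKO and 48.6 in WT (SE 0.857, limma adjusted p = 0.0771), and Pecam1 of 10.9 and 38.1 (SE 0.489, limma adjusted p = 0.0572). After removal of the GC content trend, limma called 1 pigment epithelium gene higher in RGCs and 4 in non-RGCs. Over all genes it then called 863 of 16085 higher in RGCs and 154 of 15326 in non-RGCs. Of the astrocyte genes it called 1 lower in RGCs and 0 in non-RGCs. Apoe at -0.32 and Pax2 at -0.12 lost their calls in RGCs (limma adjusted p = 0.163 and 0.707). Wls at 1.94 in non-RGCs and Pdgfrb at -0.53 in RGCs lost theirs (limma adjusted p = 0.0621 and 0.240). The part of these cells in the values of the factors was not tested either.

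Of 6 tested transcripts that overlap a factor, limma called 0 in either fraction, with 2 in RGCs and 1 in non-RGCs at p under 0.05 before adjustment. Over all genes, 7658 of 16085 in RGCs and 4580 of 15326 in non-RGCs had that p. Vax2os, antisense to the start of Vax2 (chromosome 6, 83692806 to 83712201 on the minus strand), was measured at 127, 172 and 186 in mKO RGCs and at 103, 53.2 and 112 in WT RGCs. The groups were apart in the direction opposite to Vax2, and the log2 fold change of 0.90 (SE 0.307, limma adjusted p = 0.0566) was not called. In non-RGCs it was 0.71 (SE 0.241, limma adjusted p = 0.0850), again with no overlap. Pax6os1, antisense to the start of Pax6, had a log2 fold change of 0.45 (limma adjusted p = 0.0772) in RGCs and 0.43 (limma adjusted p = 0.433) in non-RGCs. Sox2ot, whose span holds Sox2 on the same strand, had 0.27 and 0.33 (limma adjusted p = 0.423 and 0.289). Raxos1 had -0.30 and -0.07, 2810468N07Rik, antisense at Sox8, had -0.35 and 0.06, and Gm13584, antisense at Lhx2 with means of 11.2 to 35.4, had 0.60 and -0.54. Gm25054, a small nuclear RNA gene within Vax2, and Gm27197, at Lhx2, were not analysed here. The sources used here do not say whether counting used strand, and without it reads of a gene and of its antisense partner cannot be told apart.

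The genes whose profile over the 12 libraries was most like the mean profile of the 9 factors were Rrp9, Dhx32, Cnn3, Scarb1 and Nup62, out of 11996 genes that averaged 50 or more in both tables. Likeness was the root mean square difference between log2 deviations from the mean of each table, which was 0.0456 for Rrp9 and 0.0553 for Nup62. Among the factors themselves, the difference from their mean profile was smallest for Sox2, at 0.0711, and largest for Rax, at 0.184. These 5 genes had log2 fold changes of -0.55 to -0.46 in RGCs and -0.45 to -0.30 in non-RGCs.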

How the data were processed

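Single-end reads were mapped by the authors on mm10 (STAR 2.3.1z4), who used featureCounts for gene counts, and normalized and tested these in DESeq, per the labels and the study's methods. Names given in the labels also mention primary alignments and removal of duplicates. The deposited signal in each table is the mean, over the 3 libraries of a genotype, of gene counts that the authors divided by size factors. Their tables also hold fold changes and p-values, which were not used. There were 0 other columns of per-sample values.

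Each mean is a sum of 3 steps times whole reads, and an exhaustive search over the deposited digits found exactly 1 combination for 100% of genes with reads in each group. Median-of-ratios size factors computed from those reads matched the steps. The search and the fits were tested on simulated data. Where a GC content trend was simulated, no limit was set on the false calls of the fit without correction.

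Normalized reads were fitted with limma 3.58.1 (R 4.3.3, with its trend of variance on mean) on log2(value + 1). Genes averaging 10 or more in either genotype were tested, with Benjamini-Hochberg adjustment and a threshold of 0.05. The pseudocount understates changes of genes with few reads. Exon length and GC content came from GENCODE M21 (96.7% of genes matched). For the GC alternative, the lowess trend of each library (span 0.3, genes averaging 50 or more) was subtracted, and for GC content together with read density the mean of 300 neighbouring genes was subtracted. Other alternatives were pseudocounts, filters, scalings, voom weights and leaving out each library. Removing the GC trend without WT library C was added after seeing the data. A fit with the replicate number as a block was planned and could not be made.

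The 9 factors and the gene lists were chosen with earlier results of these data known. Named genes are the factors, genes that overlap them, Ezh2, the 5 genes most alike, and in each list the called genes with the 2 largest rises and falls, or the 2 largest changes where none was called, and some genes of this rule are not reported here. Levels of Pou4f1 and Rpe65, the changes of Thrb, Gnat2 and Arr3, and Six3, Hmgb3, Meis1 and Meis3 after GC removal, lie outside this rule and were chosen after their values were seen.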

Additional observations from a re-analysis of the deposited data

How the results depend on the processing

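In RGCs the factors called numbered 4 with all libraries, 2 (Rax and Meis2) with GC content and read density (reads per base of exon) both removed, and 2 to 7 with each library left out in turn. In non-RGCs they numbered 2 with all libraries, 0 with RPM, 0 with the GC content trend removed, 0 with both removed, and 0 to 4 with each library left out. A rule of p under 0.05 with a fold change of at least 1.5 took 4 factors as lower in RGCs, Rax, Lhx2, Sox9 and Sox8. It took 1001 of 16085 genes as lower there. In non-RGCs it took 1 factor as lower, Lhx2, and 1040 of 15326 genes. The difference between fractions was called for 0 factors under every alternative run. Vax2 changed sign with the GC content trend removed (0.060 in RGCs and 0.21 in non-RGCs), with both removed (0.086 and 0.21), and with the GC content trend removed and WT library C left out (0.074 in RGCs). In RGCs, Pax6 turned to 0.0061 with both removed, Nr2e1 ranged from -0.39 to 0.061 with each library left out, and with the GC content trend removed and WT library C left out Nr2e1 was at 0.19 and Lhx2 at 0.069. The difference between fractions for Meis2 turned to -0.015 with the GC content trend removed and -0.039 with both removed, and ranged from -0.0059 to 0.15 with each library left out. The cause was not tested. Both pseudocounts, voom weights, median centring and no filter left the same factors called in both fractions, and a minimum average of 50 added Meis2 in RGCs.

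Over all genes, limma called 2622 higher and 3405 lower in RGCs, 863 and 1451 with the GC content trend removed, 381 and 671 with both removed, 1513 and 2309 without mKO library A, 1527 and 2509 without mKO library B and 1427 and 2343 without mKO library C. In non-RGCs it called 641 and 985, against 154 and 105 and 153 and 169, 286 and 893 without mKO library A, 48 and 93 without mKO library B, 166 and 221 without WT library B and 343 and 476 without WT library A. RPM turned the split in non-RGCs to 1329 higher and 447 lower. For the difference between fractions it called 0 higher and 16 lower, 0 and 27 with RPM, 210 and 51 without mKO non-RGC library A, 4 and 30 without WT non-RGC library C, 0 and 7 without mKO RGC library A, and 0 and 10 without mKO RGC library B or C or WT RGC library A or B.

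No paired analysis was possible because the recovered libraries carry no replicate number.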
